A study of Arabidopsis thaliana with 16 samples.

Results

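The core circadian clock of Arabidopsis was examined in dark-adapted and light-grown suspension cells through 10 genes, CCA1, LHY, TOC1, PRR9, PRR7, PRR5, GI, ELF3, ELF4 and LUX, picked by locus identifier from the 28598 genes of the count table. Of these genes LHY alone passed the test across all genes, with a level 2.56-fold higher in the dark. That is 1 of 9 members tested (11.1%), close to the 10.0% of all genes tested that passed. Another 8 did not pass, which for some of them, such as CCA1 and PRR5, leaves wide intervals. ELF4, lower in all dark libraries than in all light ones, had too few counts for that test. Groups without overlap were seen for 16.6% of all genes tested. RNA was sequenced from 8 cultures, 4 grown under constant light (Light-RNA1 to Light-RNA4) and 4 held in foil-covered flasks (Dark-RNA1 to Dark-RNA4). The study's results describe 8 replicate cultures, while its methods also state that cultures were run in duplicate, without tying this to libraries. All cultures came from the same wild-type Col-0 cell line, prepared from leaves and kept in liquid medium with sucrose and the auxin 2,4-D, with a passage every 7 days. Dark cultures had been adapted to darkness for 2 weeks, and the labels give 16 hours for all 8 libraries. The protocol names a further sampling time for light cells, 5 days after passage, without tying it to a library. The hour of the day at harvest is not given in the sources used here. Each culture was read at a single time point under constant conditions, so the mean level of a clock gene and the phase of its rhythm cannot be told apart.

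The plant clock is a set of interlocked feedback loops of transcription factors that repress each other in sequence through the day. CCA1 and LHY, MYB-related proteins that peak at dawn, repress genes expressed in the evening. The pseudo-response regulators PRR9, PRR7 and PRR5 follow one another from morning to dusk and repress CCA1 and LHY, as does the evening regulator TOC1 (PRR1). GI works with F-box photoreceptors on protein stability. ELF3, ELF4 and LUX form the evening complex, a night-time repressor of PRR9, PRR7, GI and LUX itself. In leaves most of these transcripts swing widely over a day, and light and sugar both act on their timing.

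Clock proteins are known to bind short promoter motifs. A selection of the matches to these letters before CCA1, LHY and the members with an evening element is shown here. The 1000 bases before the annotated start of each gene were searched on both strands for the evening element (AAAATATCT), which CCA1, LHY and the related RVE8 bind, for the CCA1-binding site (AAAAATCT), for the G-box (CACGTG) and for the LUX-binding site (GATACG or GATTCG). Each stretch is written 5′ to 3′ on the strand of its gene, with the motif in capitals (in its reversed complement where it lies on the other strand) and up to 10 bases on either side, from the TAIR10.1 genome. None of the 4 motifs contains another.
LHY, G-box, chr1:37936-37961, minus strand: acaatatcacCACGTGtcgatctgcg
LHY, CCA1-binding site, chr1:38283-38310, minus strand: gaaaagatgaAGATTTTTatacagacgc
CCA1, G-box, chr2:19245388-19245413, plus strand: gtgtatcagaCACGTGtcgacaaact
TOC1, evening element, chr5:24674802-24674830, plus strand: aaatatcatgAGATATTTTctccaagatg
PRR5, evening element nearest the start, chr5:8358715-8358743, minus strand: gattttttctAGATATTTTcttttctcca
GI, evening element nearest the start, chr1:8061150-8061178, plus strand: agctcccctcAAAATATCTgtggacatat
ELF4, evening element, chr2:16735471-16735499, minus strand: atactacaaaAAAATATCTtgcggattat
LUX, evening element, chr3:17182979-17183007, plus strand: tagaagatctAAAATATCTagctaactcg

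Of the 10 promoters, 5 held an evening element (TOC1, ELF4 and LUX with 1 site, PRR5 and GI with 3), against 7.24% of the 27443 protein-coding promoters of the same length. A CCA1-binding site was found before LHY, PRR9 and PRR5 (21.1% of all promoters), and a G-box before CCA1, LHY, PRR9, PRR7 and LUX (14.8%). The LUX-binding site, found in 39.8% of all promoters, was present in 8 of the 10, the exceptions being CCA1 and PRR5. A match to these letters is a description of the sequence and not evidence of a bound factor.

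Light-grown libraries held 18363149 to 37813411 counts on genes and dark-grown libraries 29916585 to 32688689, so that 3 counts correspond to between 0.0779 and 0.159 CPM (counts per 1e6 counts, after scaling by the trimmed mean of M values). Light-RNA4 had the smallest total, and Dark-RNA2 the lowest scaling factor (0.940). The labels of the growth conditions were matched by 3 of 3 photosynthesis markers (LHCB1.1, LHCB2.1 and RBCS1A), which were lower in the dark, with a summed level of 223 to 457 CPM in light and 1.19 to 11.2 CPM in dark libraries. Light-RNA4 was the lowest light library for all 3, with RBCS1A at 179 CPM against 310 to 343 CPM in the others. Dark-RNA2 held 70 counts of LHCB2.1, against 1 or 2 in the other dark libraries. Of 4 markers of dividing cells none passed the edgeR test, although 2 had an unadjusted p under 0.05, and their sum ranged from 204 to 374 CPM in light and from 132 to 261 CPM in the dark. Among 6 markers of other cell types the epidermal PDF1 and the trichome gene GL1 were at 0 counts throughout and the guard cell gene FAMA reached at most 0.03 CPM. The summed level of these 6 genes, 0.636 to 4.57 CPM in light and 8.07 to 12.1 CPM in dark, was mostly RHD6, a root hair regulator that rose in the dark (log2 fold change 2.69, adjusted p = 0.0297). The phloem companion cell gene SUC2 went the other way, from 0.123 to 0.467 CPM in light to at most 0.0635 CPM in the dark without overlap (3 to 18 against 0 to 2 counts), and the epidermal ATML1 was at 0.0530 to 0.311 CPM in light and at most 0.163 CPM in the dark; neither had enough counts for the edgeR test. The part of these marker differences in the results below was not tested. In such bulk samples fewer cells of a kind and less RNA per cell cannot be told apart.

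Of 19129 genes tested with edgeR, 6.31% (1207) had a lower and 3.69% (705) a higher level without light at an adjusted p under 0.05. Together 10.0% (1912) passed. Of the 9 clock genes tested, 1 passed (11.1%), close to that background. Their fold changes leaned neither way, with 3 above and 6 below 0 on the log2 scale and a median of -0.07 against 0.0039 for all genes. The median absolute log2 fold change was 0.25 for the 9 genes and 0.23 for all genes tested. Libraries of a group that do not overlap with the other group were seen for 16.6% of the genes tested, 6.50% higher and 10.1% lower in the dark; among the 9 tested clock genes this held for LHY alone. The p-values measure the spread between these libraries, taken as separate replicate cultures of the same cell line. If some libraries shared a culture, the p-values would be too small.

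**Figure D1:**
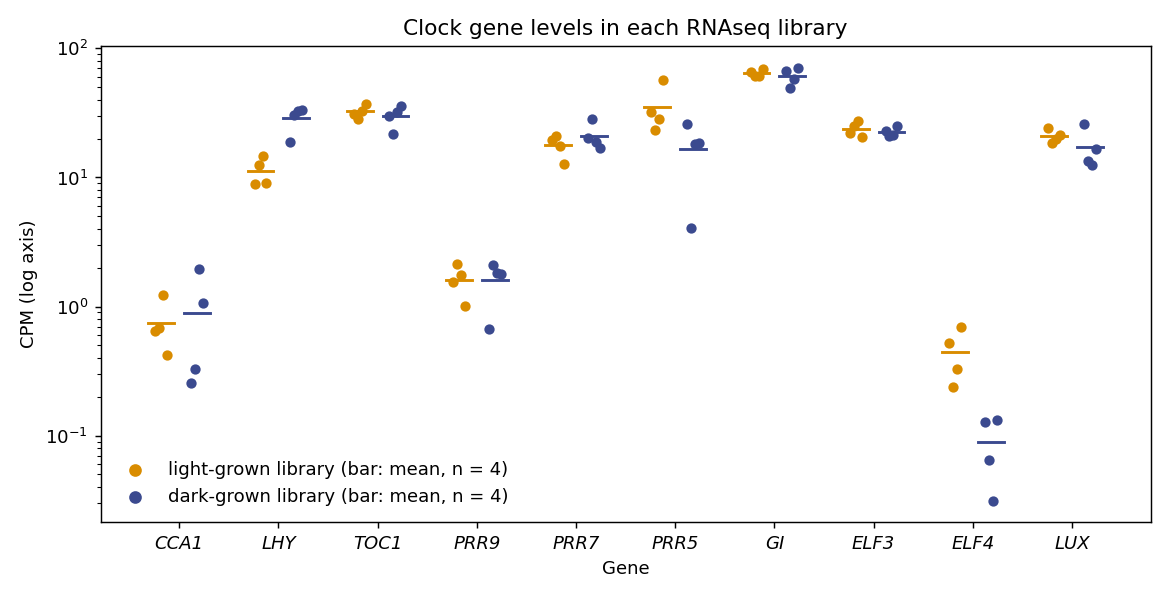
Level of the 10 core clock genes in each RNAseq library, in CPM on a log axis, with light-grown libraries in orange, dark-grown libraries in blue and a bar at the mean of each group (n = 4). LHY is the tested gene whose groups stand apart (8.98 to 14.7 CPM in light, 18.9 to 33.5 CPM in dark); the low ELF4 also shows no overlap, at 1 to 4 counts per dark library.

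LHY (AT1G01060, chromosome 1, 33365 to 37871, minus strand), the dawn repressor, was measured at 8.98, 12.4, 14.7 and 9.11 CPM in Light-RNA1 to Light-RNA4. In Dark-RNA1 to Dark-RNA4 it stood at 18.9, 30.6, 32.9 and 33.5 CPM. Every dark library lay above every light library, with Dark-RNA1 the lowest of the dark cultures. The mean rose from 11.3 ± 2.77 to 29.0 ± 6.82 CPM (SD, n = 4 each), a log2 fold change of 1.36 with a standard error of 0.23 and a 95% interval of 0.83 to 1.88 (adjusted p = 0.00751, edgeR). The exact two-sided permutation test gave p = 0.029, the smallest that 4 libraries against 4 allow. The call stood with each library left out in turn, the log2 fold change ranging from 1.26 to 1.52 and the adjusted p from 0.00373 to 0.028. Over all alternatives run, the adjusted p of LHY lay between 8.17e-07 (DESeq2) and 0.028. No other gene overlaps LHY, and none of its 2980 exon windows of 50 bases occurs elsewhere in the genome, CCA1 included.

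CCA1 (AT2G46830, chromosome 2, 19245591 to 19248915, plus strand), the close relative and partner of LHY, was present at a far lower level. Light-RNA1 to Light-RNA4 held 0.65, 0.68, 1.23 and 0.42 CPM, from 25, 23, 30 and 8 counts. Dark-RNA1 to Dark-RNA4 held 0.25, 0.33, 1.95 and 1.06 CPM, from 8, 10, 62 and 32 counts. Dark-RNA1 and Dark-RNA2 lay below all light libraries, Dark-RNA4 within their range and Dark-RNA3 above it, with a 7.66-fold span between Dark-RNA1 and Dark-RNA3. Means of 0.745 ± 0.340 and 0.896 ± 0.789 CPM (SD, n = 4) gave a log2 fold change of 0.26 with an interval of -1.26 to 1.78 (adjusted p = 0.860), wide enough to hold the change seen for LHY. The estimate turned to -0.45 without Dark-RNA3, to -0.11 with limma-voom and to -0.07 with the replicate block, none of them past the threshold. Whether the change of LHY differed from that of CCA1 was not tested.

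Scaled to exon length, LHY RNA exceeded CCA1 RNA in all 8 libraries. The ratio of LHY to CCA1, both in CPM per kilobase of exon, was 11.01, 14.5, 9.55 and 17.1 in Light-RNA1 to Light-RNA4. It was 59.2, 74.8, 13.4 and 25.1 in Dark-RNA1 to Dark-RNA4. The groups overlapped through Dark-RNA3, which had the highest CCA1 level of all libraries. The ratio of group means was 12.1 in light and 25.7 in the dark.

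PRR9 (AT2G46790, chromosome 2, 19232607 to 19235179, plus strand), the earliest of the day-phase pseudo-response regulators, lies 10411 bases from CCA1 on the same chromosome. It was measured at 1.56, 2.14, 1.76 and 1.01 CPM in the light libraries and at 0.67, 2.12, 1.82 and 1.79 CPM in the dark ones, in order of library number. The groups overlapped almost fully, Dark-RNA1 being the lowest of the 8. The log2 fold change was -0.02 with an interval of -0.93 to 0.89 (adjusted p = 0.982), and its sign turned when Light-RNA2, Light-RNA3 or Dark-RNA1 was left out. Counts of this gene are uncertain, since AT2G46670, a shorter gene on chromosome 2 (19164357 to 19165233), holds identical copies of 41.1% of the 50-base windows of its exons and itself had 1 to 12 counts per library.

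PRR7 (AT5G02810, chromosome 5, 637681 to 642030, minus strand), which acts with PRR9 on CCA1 and LHY in the morning, was at 19.6, 20.8, 17.6 and 12.8 CPM in light. The dark libraries gave 20.0, 28.3, 18.8 and 17.0 CPM. Dark-RNA2 was the highest and Light-RNA4 the lowest, with the other cultures intermixed. PRR7 had a log2 fold change of 0.25 (interval -0.21 to 0.70, adjusted p = 0.503), and it fell to -0.05 with these 2 libraries left out.

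PRR5 (AT5G24470, chromosome 5, 8356204 to 8358546, minus strand), the late-day member of the family, showed the largest difference of means among the genes that did not pass. Light libraries held 32.3, 23.3, 28.5 and 56.8 CPM and dark libraries 25.9, 4.07, 18.05 and 18.5 CPM. The groups met only where Dark-RNA1 exceeded Light-RNA2, and the ends of the range were Light-RNA4 and Dark-RNA2. Means of 35.2 ± 14.8 and 16.6 ± 9.12 CPM (SD, n = 4) gave a log2 fold change of -1.08 with a standard error of 0.50 and an interval of -2.24 to 0.07 (adjusted p = 0.227). The exact permutation test gave p = 0.057. In the 4 libraries that the study sets beside its chromatin samples (the light libraries 2 and 3 and the dark libraries 3 and 4) the log2 fold change was -0.51 and passed (adjusted p = 0.0396), in a fit where 5387 genes passed in all. With each library left out in turn it lay between -1.38 and -0.75 and never passed (adjusted p from 0.16 to 0.365).

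TOC1 (AT5G61380, chromosome 5, 24674963 to 24678550, plus strand), the evening repressor of CCA1 and LHY, was even across the cultures. It was measured at 31.3, 28.6, 32.8 and 37.4 CPM in light and at 30.1, 21.6, 31.9 and 35.5 CPM in the dark, with Dark-RNA2 the lowest of the 8. The log2 fold change of -0.13 had an interval of -0.48 to 0.23 (adjusted p = 0.685). Without Dark-RNA2 it was 0.00087.

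GI (AT1G22770, chromosome 1, 8061751 to 8067790, plus strand), which stabilises the photoreceptor ZTL and links the clock to flowering, was the steadiest member in light. Its light libraries lay at 65.4, 61.4, 61.6 and 69.4 CPM and its dark libraries at 66.8, 49.5, 58.3 and 71.0 CPM. Both extremes of the 8 belonged to dark cultures. The log2 fold change was -0.07 with an interval of -0.34 to 0.20 (adjusted p = 0.777), so a rise or fall of the size measured for LHY lies outside the interval. Its sign turned without Dark-RNA2.

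ELF3 (AT2G25930, chromosome 2, 11058944 to 11063324, plus strand), the scaffold of the evening complex and a gate for light input, stood at 22.3, 24.9, 27.2 and 20.5 CPM in light. Dark libraries held 22.8, 21.0, 21.3 and 25.1 CPM, all within the range of the light ones. The log2 fold change was -0.07 (interval -0.34 to 0.19, adjusted p = 0.754). The gene shares 183 bases with the antisense RNA AT2G08135 and 24 with AT2G25940, and the use of strand in counting is not given in the sources used here.

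ELF4 (AT2G40080, chromosome 2, 16734294 to 16734953, minus strand), a small protein that tunes ELF3, was at the limit of detection. It had 20, 8, 8 and 13 counts (0.52, 0.24, 0.33 and 0.69 CPM) in light and 4, 2, 1 and 4 counts (0.13, 0.07, 0.03 and 0.13 CPM) in the dark. All dark libraries lay below all light libraries, and 2 of them held fewer than 3 counts. The filter on low counts kept ELF4 out of the test. With no filter its log2 fold change was -2.25 with a standard error of 0.63 (adjusted p = 0.0607 over 24641 genes), while the exact permutation test on this gene alone gave p = 0.029, the smallest possible. With no filter and each library left out in turn, the adjusted p ran from 0.0763 to 0.161.

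LUX (AT3G46640, annotated as PCL1, chromosome 3, 17183042 to 17186959, plus strand), the DNA-binding subunit of the evening complex, gave 24.0, 18.5, 20.0 and 21.4 CPM in light. The dark libraries gave 26.1, 13.4, 12.6 and 16.6 CPM. Dark-RNA1 was above all light libraries and the other dark cultures below all of them. LUX had a log2 fold change of -0.29 (interval -0.81 to 0.23, adjusted p = 0.487). Without Dark-RNA1 it became -0.56 and passed (adjusted p = 0.0471), so 1 culture decided this call. The antisense gene AT3G46650 covers 1507 bases of LUX and had 0 counts in every library.

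**Figure D2:**
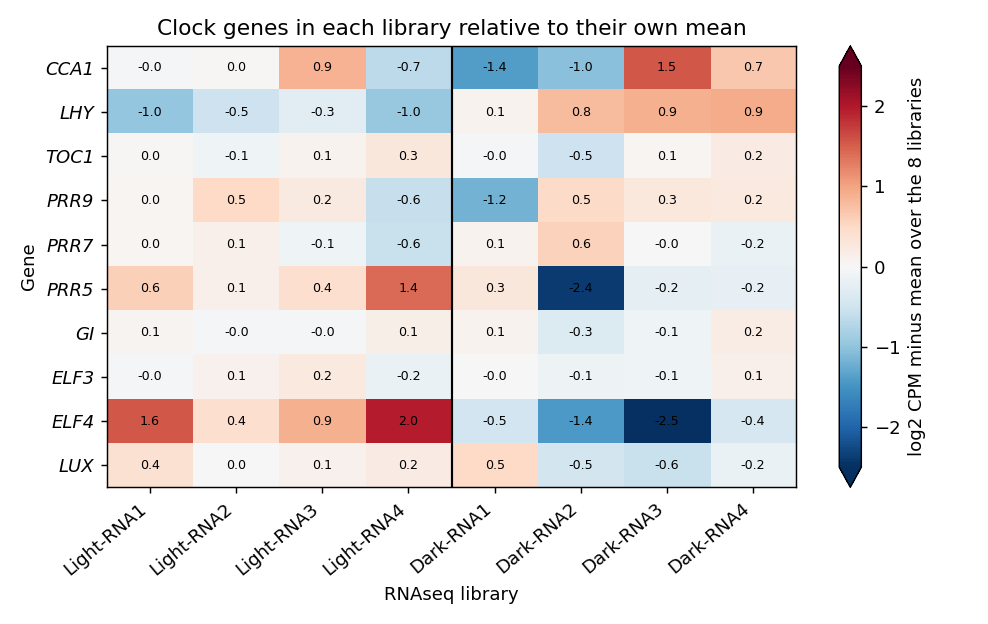
Deviation of each clock gene in each library from its own mean over the 8 libraries, as log2 CPM, with light libraries left of the black line and dark libraries right of it. LHY (higher in the dark) and the low ELF4 (lower in the dark) change sign at the line, whereas CCA1 and LUX vary within the dark group and PRR5 is extreme in Light-RNA4 and Dark-RNA2.

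The spread between cultures differed between the genes. In light the coefficient of variation of CPM ran from 5.82% for GI, through 11.1% for LUX and 11.2% for TOC1, to 45.7% for CCA1. In the dark it ran from 8.36% for ELF3 and 15.5% for GI to 54.9% for PRR5, 55.2% for ELF4 and 88.0% for CCA1. LHY varied alike in both conditions, by 24.5% and 23.6%.

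The members were ranked by level after scaling to exon length, in CPM per kilobase of exon. This length joins the exons of all annotated transcripts of a gene, so the order also depends on the annotation. PRR5 had 1677 exon bases from 1 transcript, whereas the 3 transcripts of LUX covered 3916 of its 3918 bases. In light the mean levels fell from PRR5 (21.0) through GI (15.0), TOC1 (11.6), ELF3 (8.63), PRR7 (5.48), LUX (5.36) and LHY (3.30) to PRR9 (0.755), ELF4 (0.716) and CCA1 (0.274). The order did not follow the time of day throughout. PRR5, GI and TOC1 came first, but LUX and ELF4 of the evening complex held ranks 6 and 9. The ranges of neighbours overlapped between PRR5 and GI, between PRR7 and LUX, and among PRR9, ELF4 and CCA1. In the dark the order was GI (14.3), TOC1 (10.6), PRR5 (9.91), LHY (8.47), ELF3 (8.20), PRR7 (6.51), LUX (4.38), PRR9 (0.747), CCA1 (0.329) and ELF4 (0.144). LHY moved from rank 7 to rank 4, level with ELF3, and PRR5 from rank 1 to rank 3. All neighbours in the dark order overlapped in range except LUX and PRR9, whose libraries were separated by a gap from 3.21 down to 0.988.

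**Figure D3:**
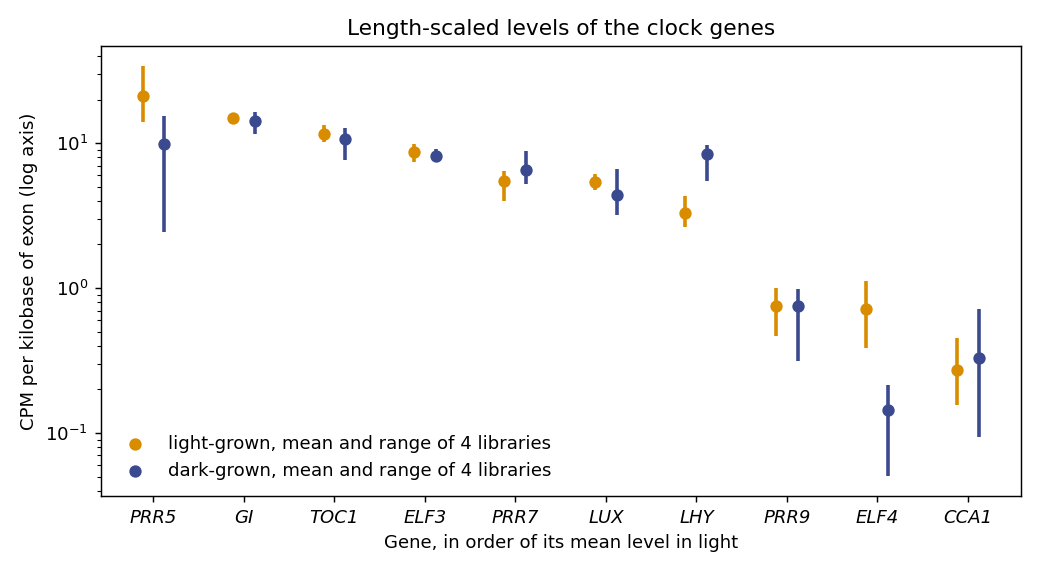
Length-scaled level of each clock gene in CPM per kilobase of exon on a log axis, ordered by the light mean, with points at the mean and lines over the range of 4 libraries in light (orange) and dark (blue). PRR9, ELF4 and CCA1 lie below the other genes in both conditions, and LHY rises from 3.30 to 8.47.

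To place the members among their regulators, 38 further genes known to act in or on the clock were read from the same fit. Of the 36 that could be tested, 6 passed (16.7%, against 10.0% of all genes), 2 higher and 4 lower in the dark. The median log2 fold change of the 36 was -0.03, and 30 did not pass. RVE3 and EFL1 had too few counts.

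The 2 genes that rose, LNK3 and LNK4, belong to the night light-inducible and clock-regulated family, whose products LNK1 and LNK2 are coactivators of RVE8. LNK4 (AT5G06980) was at 19.4, 21.3, 23.6 and 18.8 CPM in light and at 27.1, 43.0, 37.8 and 36.1 CPM in the dark, with no overlap, and its log2 fold change of 0.80 (SE 0.15, adjusted p = 0.0121) passed with any library left out. LNK3 (AT3G12320) was at 6.96, 7.19, 10.4 and 6.68 CPM in light and at 14.2, 12.3, 10.9 and 11.7 CPM in the dark. Its log2 fold change of 0.65 (SE 0.17, adjusted p = 0.0459) stood only just past the threshold: it was lost in 7 of the 8 fits that leave out a library, the exception being the one without Light-RNA3. LNK1 and LNK2 did not pass; LNK1 had a log2 fold change of -0.51 (adjusted p = 0.0578) and LNK2 one of 0.09.

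COR27 (AT5G42900), a light- and cold-responsive repressor of PRR5 and TOC1 with 2 evening elements in its promoter, had the largest fall among the further clock genes that passed. It went from 14.9, 9.65, 7.68 and 6.89 CPM in light to 2.07, 2.67, 2.83 and 1.99 CPM in the dark, with no overlap. This is a log2 fold change of -2.04 (SE 0.28, adjusted p = 0.00254), which passed with any library left out. FKF1 (AT1G68050), the blue-light F-box protein that partners with GI, also carries 2 evening elements and fell from 13.3, 8.85, 8.09 and 11.4 CPM to 5.02, 2.60, 2.23 and 2.82 CPM. Its log2 fold change was -1.72 (SE 0.29, adjusted p = 0.00729), again past the threshold with any library left out, while its relatives ZTL and LKP2 had log2 fold changes of -0.15 and 0.09 and did not pass. The evening element nearest the start of each gene, shown for comparison with those of the members, was as follows.
COR27, evening element nearest the start, chr5:17199912-17199940, minus strand: gcagttgaagAAAATATCTttgatatttt
FKF1, evening element nearest the start, chr1:25508443-25508471, plus strand: tgagtaggctAGATATTTTctcggaatat

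An evening element was present before 4 of the 38 further genes (RVE7, COR27, FKF1 and BOA), against 7.24% of all promoters.

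RVE4 and RVE8 encode MYB-related activators of evening genes, of the same protein family as CCA1 and LHY. RVE4 (AT5G02840), which lies 6617 bases from PRR7, fell from 13.7, 16.7, 19.8 and 15.2 CPM to 7.72, 8.33, 10.4 and 11.5 CPM. Its change of -0.78 (log2, SE 0.17, adjusted p = 0.0223) did not pass without Light-RNA2 (adjusted p = 0.0601), Light-RNA3 (adjusted p = 0.0718) or Dark-RNA3 (adjusted p = 0.051). RVE8 (AT3G09600) was at 4.28, 4.54, 6.50 and 4.98 CPM in light and at 0.29, 0.52, 1.73 and 2.15 CPM in the dark, without overlap. Its log2 fold change of -2.11 (SE 0.57, interval -3.42 to -0.80) missed the threshold narrowly (adjusted p = 0.0530) and passed with DESeq2 (0.00216), limma-voom (0.0178), the likelihood ratio test (0.00488), the replicate block (0.0273) and without Dark-RNA1 (0.0489) or Dark-RNA4 (0.0457). The 5 other tested REVEILLE genes (RVE1, RVE2, RVE5, RVE6 and RVE7) had log2 fold changes between -0.03 and 0.51, none past the threshold.

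JMJ30 (AT3G20810), a histone demethylase that takes part in the clock and is expressed in the evening, was at 22.5, 14.7, 12.3 and 13.9 CPM in light and at 10.1, 6.25, 5.74 and 7.59 CPM in the dark. The difference on the log2 scale was -1.10 (SE 0.24, adjusted p = 0.0242). It did not pass without Light-RNA1 (adjusted p = 0.0554), Light-RNA2 (0.0561), Dark-RNA3 (0.0779) or Dark-RNA4 (0.0666).

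Of 10 genes that the clock controls, 9 were tested and 1 passed (11.1%, against 10.0% of all genes). CDF3 (AT3G47500), a DOF-type repressor of CO that FKF1 and GI remove in leaves, fell from 9.45, 11.6, 11.7 and 9.06 CPM in light to 3.59, 4.00, 5.71 and 6.26 CPM in the dark. With a log2 fold change of -1.09 (SE 0.21, adjusted p = 0.013), it lost the call only without Light-RNA3 (adjusted p = 0.0511). CO, the photoperiodic flowering regulator, was at 0.415 to 1.10 CPM in light and 0.222 to 0.628 CPM in the dark (log2 fold change -0.98, adjusted p = 0.231), and its target FT had 0 counts in every library. The RNA-binding proteins GRP7 and GRP8, which regulate each other's transcripts, had log2 fold changes of -0.38 (adjusted p = 0.115) and 0.52 (adjusted p = 0.126). CDF2 had a log2 fold change of 0.68 (adjusted p = 0.213), which became 0.91 and passed without Dark-RNA2 (adjusted p = 0.0212), while GRP7 passed without Light-RNA4 (-0.49, adjusted p = 0.0165).

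**Figure D4:**
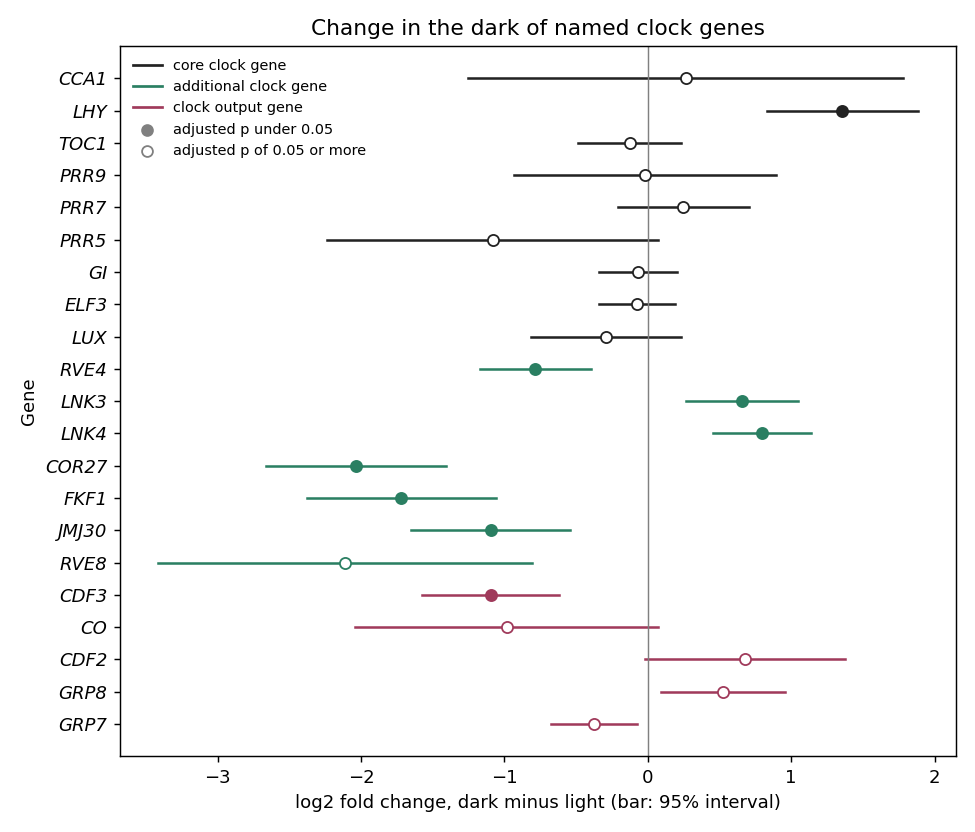
Log2 fold change, dark minus light, of the 9 tested core clock genes (black), of named additional clock genes (green) and of named clock output genes (red), with 95% intervals not adjusted for the number of genes; filled points passed an adjusted p of 0.05. LHY (1.36) is the filled point among the core genes, and COR27 (-2.04) and FKF1 (-1.72) are the lowest filled points.

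The genes whose pattern over the 8 libraries was most like that of CCA1 and LHY were sought outside these lists, by Pearson's r of log2 CPM with the mean of both standardised profiles. The 5 highest were AT3G12340 (r = 0.980), which overlaps the end of LNK3 by 5 bases, AT4G36980 (0.972), EC1.5 (0.970), AT4G06688 (0.966) and CID7 (0.956). The 8 points share their libraries, and the genes were picked as the highest of all tested, so r is a description. None of the 5 passed the edgeR test of dark against light (adjusted p between 0.208 and 0.753). The target profile itself joins the shift of LHY with the spread of CCA1 within the dark group.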

How the data were processed

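RNAseq libraries of 8 cultures were analysed; the chromatin (MNase-seq) samples of the series were not analysed here. The authors used TopHat2 to place paired reads of 50 bp on TAIR10, with Araport11, and deposited HTSeq counts per gene, not normalized. Versions, counting mode and use of strand are not given in the sources used here. A further deposited table holds the fold changes and p-values of the authors' own comparison and was not used.

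Genes were tested with edgeR 4.0.16 (R 4.3.3): TMM, filterByExpr (minimum count 10, total 15), robust quasi-likelihood fit without a block, and Benjamini-Hochberg adjustment over 19129 genes (adjusted p under 0.05). For single genes, log2(CPM + 0.5) was also compared by exact permutation, two-sided. Libraries of a group differed by 23.7 to 132 times the sampling variance, so none was a repeat of the same library. Whether any libraries shared a culture was not tested. On simulated counts for dark against light (18984 genes), the fit called 45 of 100 genes changed by a log2 of 1 and 83 of 98 changed by 2. Coordinates, exon lengths and sequences came from RefSeq's TAIR10.1 annotation, to which 27636 of the 28598 identifiers matched (58 of 58 listed). DESeq2 1.42.0 and limma 3.58.1 were alternatives, as were other filters and scalings, library subsets, pseudocounts of 0.1 and 2, and the replicate number as a block. The ELF4 fits without a filter that leave out libraries or use the block were chosen after seeing the data. Named genes are the 10 members, every further clock or output gene past the threshold, the 5 of each list with the largest absolute log2 fold change, and the 5 most like CCA1 and LHY. Others (SUC2, ATML1, RHD6, LNK1, LNK2, ZTL, LKP2, RVE1, RVE2, RVE5, RVE6, RVE7, TIC, CAT3, FT) were chosen after their values were seen or complete a family. The members and all gene lists were chosen with earlier results of these data known.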

Additional observations from a re-analysis of the deposited data

Results flagged for a closer look

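A search of the 44 groups of 4 libraries (22 named genes in light and in dark) for a library far from the others, by Dixon's criterion at 95%, returned 2, and chance gives about 2.2. LNK3 stood at 10.4 CPM in Light-RNA3, against 6.68 to 7.19 CPM in the other light libraries. CDF2 stood at 4.17 CPM in Dark-RNA2, against 9.69 to 10.6 CPM in the other dark libraries. None of the 10 core clock genes was among them.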

How the results depend on the processing

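Of the alternatives' values for single named genes, 338 kept direction and side of the threshold, 18 lost and 15 gained a call, and 14 turned sign, all 14 in members never called. These were CCA1 (-0.068 with the replicate block, -0.11 with limma-voom, -0.45 to 0.60 with libraries left out), TOC1 (0.13 in the 4 libraries paired with chromatin samples, 0.074 without Light-RNA4 and Dark-RNA2, -0.22 to 0.00087 with libraries left out), PRR9 (-0.19 to 0.24 with libraries left out), PRR7 (-0.11 and -0.054 in the same subsets) and GI (0.072 and 0.060 in these subsets, -0.15 to 0.022 with libraries left out). LHY passed under every alternative run. All genes called numbered 3197 with DESeq2 (1421 higher), 5387 in the paired subset (2896 lower, 2491 higher), 4850 without Light-RNA4 and Dark-RNA2 (2431 lower, 2419 higher) and 962 to 2873 with each library left out (689 to 1669 lower, 273 to 1204 higher); the cause was not tested. Members called numbered 2 in the paired subset and 1 to 2 with libraries left out, additional clock genes 3 to 7 with libraries left out, and output genes 4 in either subset and 0 to 2 with libraries left out. The exact test gave 2 members (LHY and the low ELF4) at its smallest p with each pseudocount. That p arises where the groups do not overlap, which held for 16.6% of all genes tested with edgeR. Same-numbered libraries correlated at -0.144, 0.582, -0.0248 and 0.219, so a consistent pairing of cultures by number was not seen. With 4 values this is no test for a shared batch. All 4 markers of dividing cells were higher in libraries 1 and 2 than in libraries 3 and 4, in light and in dark. The cause of that split was not tested. The replicate block called 2221 genes, of which 1607 were among the 1912. It called 1 member (LHY, log2 fold change 1.35), 7 additional and 1 output gene. Dark libraries held 1 to 4 counts of ELF4 and 8 to 62 of CCA1.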

Other observations

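TIC (AT3G22380), a nuclear protein needed for clock timing, was the most abundant of the 58 listed genes on the length-scaled level, at 269 CPM per kilobase of exon in light (range 217 to 309) and 259 in the dark (range 223 to 339.5). The next were the catalase gene CAT3, at 137 and 108 CPM per kilobase, and the splicing factor gene SKIP, at 67.6 and 66.7 CPM per kilobase. None of the 5181 exon windows of 50 bases of TIC occurs elsewhere in the genome, and no gene overlaps it. Its log2 fold change was -0.06 (adjusted p = 0.876).

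Some clock genes varied within the dark group as CCA1 did, a pattern chosen after the values were seen and not tested. CAT3, whose transcript is under evening control of the clock, was at 224 and 229 CPM in Dark-RNA1 and Dark-RNA2 and at 433 and 570.5 CPM in Dark-RNA3 and Dark-RNA4, against 427 to 491 CPM in light. LNK2 was at 11.7 and 17.1 CPM in Dark-RNA1 and Dark-RNA2 and at 33.5 and 27.8 CPM in the other dark libraries, against 13.9 to 29.0 CPM in light. Also lower in Dark-RNA1 and Dark-RNA2 than in Dark-RNA3 and Dark-RNA4 were LHY, TOC1, RVE4, RVE8 and CDF3. For LHY the values were 18.9 and 30.6 against 32.9 and 33.5 CPM. GI had its lowest value in Dark-RNA2 and its highest in Dark-RNA4, and ELF3 varied little. PRR7 was higher in Dark-RNA1 and Dark-RNA2 (20.0 and 28.3 CPM) than in Dark-RNA3 and Dark-RNA4 (18.8 and 17.0 CPM). The same held for LNK3 (14.2 and 12.3 against 10.9 and 11.7 CPM). All 4 markers of dividing cells were also higher in Dark-RNA1 and Dark-RNA2, such as KNOLLE (45.1 and 24.2 against 20.8 and 14.2 CPM). The split is thus not particular to clock genes. Dark-RNA3 and Dark-RNA4 are the dark libraries that the study sets beside its chromatin samples, and Dark-RNA1 and Dark-RNA2 are not; whether this division has a part in these values was not tested, and the hours of their harvest are not given in the sources used here.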
